A study of Mus musculus with 24 samples.

Results

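The transcription factor genes Pax2, Pax8, Tfap2b, Sim1, Sim2, Emx1, Lhx1, Foxi1 and Esrrg, all known from kidney epithelium, were followed through maps of cisplatin repair in mouse kidney and liver. They are 9 of the 25239 gene entries in the deposited tables, taken by their symbol, and each symbol had 1 entry. The libraries were made by XR-seq, which sequences the short DNA oligomers that nucleotide excision repair cuts out around an adduct, and each read was counted on the transcribed strand (TS), the template of RNA polymerase, or on the non-transcribed strand (NTS). All mice were wild type C57BL/6 females (C57BL/6J in the growth protocol) aged 6 months under a 12 h light and 12 h dark cycle, and cisplatin was injected intraperitoneally at 10 mg/kg in all of them. Per the series' design text tissue was taken 2 h after injection, at zeitgeber time (ZT, counted in hours from lights on) 0, 4, 8, 12, 16 and 20, with 2 kidney and 2 liver libraries at each time, 24 in all and 12 per tissue. No group was without cisplatin. Whole tissue was lysed, and excised oligomers were pulled down through TFIIH, the repair factor that stays bound to them. The extraction protocol then names antibodies against CPD or BPDE lesions, whereas the treatment protocol names cisplatin. The labels leave out whether both libraries of a time stem from different animals, and p-values therefore reflect the spread between libraries, which may be technical.

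Nephron epithelium forms from mesenchyme under the control of a small set of DNA-binding proteins, several of which stay on in the adult tubule. Cisplatin joins neighbouring guanines within a strand, and kidney is the organ in which the drug is most known for its toxicity. When RNA polymerase stalls at such an adduct, transcription-coupled repair removes it from the template strand. A gene that is being transcribed therefore gives more excised oligomers from its TS than from its NTS, and a silent gene gives similar numbers from both. mRNA was not measured.

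The kidney libraries held 6334958 to 24236776 TS reads and 975978 to 3948748 NTS reads, and the liver libraries 9538537 to 21050661 TS reads and 1333813 to 2940892 NTS reads. On the TS the 7 proximal tubule markers, the 4 thick limb, the 4 distal convoluted tubule and the 5 principal cell markers were all higher in kidney. So were 6 of 7 intercalated cell markers and 2 of 4 podocyte markers. Atp6v0d2 of the intercalated list (log2 -1.43) and Synpo of the podocyte list (-1.68) were lower in kidney. The 7 hepatocyte markers were all lower in kidney. Of all genes tested on the TS 42.2% were called higher and 31.7% lower in kidney. Since whole tissue was used, fewer cells of a type and less repair per cell cannot be told apart in any comparison.

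The liver library of ZT4 replicate 1 stood apart from the other 11 liver libraries for the genes followed here. The summed TS reads of the 9 genes without Esrrg were 28.1 RPM (reads scaled to library size) in it, against a median of 8.79 and a highest value of 13.9 RPM in the other 11, and 7 of the 8 genes were highest in it. All 7 proximal tubule markers were also highest in it, their sum being 2.12 times the median of the other 11, and 3 of 4 thick limb markers were, with a sum 2.04 times that median. The sums of distal convoluted tubule, principal cell, intercalated cell, podocyte and endothelial markers were between 0.931 and 1.44 times the median of the other 11. The 1.44 was that of intercalated cell markers, whose sum was also highest in ZT4 replicate 1, as were 2 of 7 of these markers. The sums of distal convoluted tubule, principal cell, podocyte and endothelial markers were highest in other liver libraries. In ZT4 replicate 1 the sums of hepatocyte markers and hepatocyte factors were 1.01 and 1.04 times the median of the other 11. No marker of any list was at 0 in all libraries of a tissue. The part of kidney material in the member values of that library was not tested. Many of the values below are given with and without it. Liver ZT0 replicate 1 had the lowest hepatocyte sum (224 RPM, against a liver median of 343 RPM) and the highest endothelial sum (281 RPM, against a liver median of 117 RPM).

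**Figure D1:**
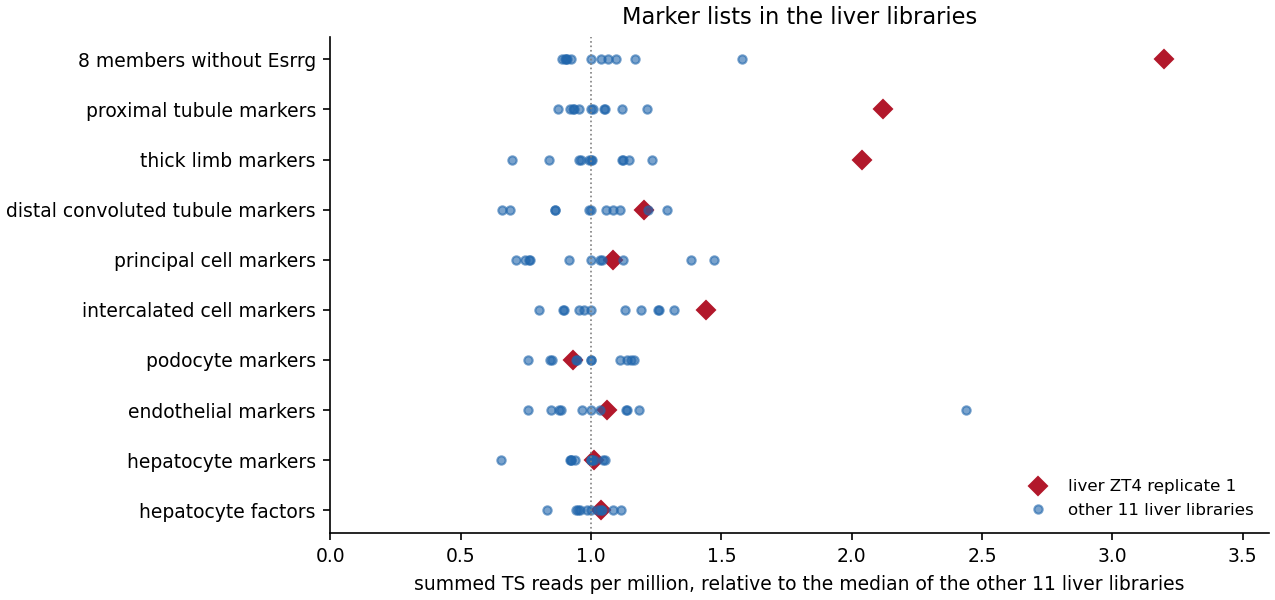
Summed TS level (RPM) of each list in the 12 liver libraries, each divided by the median of 11 libraries without ZT4 replicate 1. The diamond of liver ZT4 replicate 1 lies at 3.20 for the 8 genes without Esrrg, at 2.12 for proximal tubule markers and at 2.04 for thick limb markers, and near 1 for hepatocyte markers.

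The paired box genes Pax2 and Pax8 encode partner factors that set up the nephron lineage, and in the adult Pax8 is also known from the thyroid. Pax2 spans 80.5 kb on the + strand (mm10, chr19:44757394-44837869) and Pax8 spans 55.0 kb on the - strand (chr2:24420551-24475599). In RPKM (reads scaled to gene length in kilobases and to library size, as deposited), Pax2 had a lowest, median and highest TS level of 1.87, 2.30 and 2.74 over the 12 kidney libraries, against 0.0244, 0.0330 and 0.131 over the 12 liver libraries. Pax8 had 2.10, 2.23 and 2.46 RPKM in kidney, against 0.0160, 0.0286 and 0.103 RPKM in liver. The highest liver value of each was that of ZT4 replicate 1, and without it the liver libraries reached only 0.0511 RPKM for Pax2 and 0.0567 RPKM for Pax8. No kidney library overlapped a liver library for either gene.

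Tfap2b, on the + strand (chr1:19208914-19238845, 29.9 kb), encodes an AP-2 factor of the distal nephron. Its TS level was 0.958, 1.10 and 1.27 RPKM (lowest, median, highest) in kidney and 0.00518, 0.0129 and 0.0635 RPKM in liver. The liver values rest on 3 to 43 reads per library, 43 being those of ZT4 replicate 1 and 11 the most in any other liver library. Sim1 (+ strand, chr10:50895651-50989152, 93.5 kb) and Sim2 (+ strand, chr16:94085260-94127032, 41.8 kb) encode bHLH-PAS factors related to the fly midline regulator single-minded, and Sim1 is best known for its part in hypothalamic control of feeding. Sim1 had 0.574, 0.640 and 0.702 RPKM in kidney, against 0.0125, 0.0182 and 0.0421 RPKM in liver. Sim2 had 0.546, 0.667 and 0.777 RPKM in kidney, against 0.0186, 0.0237 and 0.0434 RPKM in liver. Without liver ZT4 replicate 1 the highest liver level was 0.0282 RPKM for Sim1 and 0.0429 RPKM for Sim2. The 2 Sim genes had kidney levels that overlapped each other library by library, and neither overlapped its own liver range.

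The homeobox genes were the highest of the group in kidney. Emx1 (+ strand, chr6:85187931-85204463, 16.5 kb), known above all from the developing cortex of the brain, had 2.92, 3.10 and 3.52 RPKM in kidney, against 0.0267, 0.0415 and 0.131 RPKM in liver. Lhx1 (- strand, chr11:84519379-84525534, 6.16 kb), a LIM homeobox gene needed for kidney and head formation, had 3.98, 4.47 and 5.77 RPKM in kidney, against 0.0503, 0.140 and 0.323 RPKM in liver. Without liver ZT4 replicate 1 the highest liver level was 0.0723 RPKM for Emx1 and 0.186 RPKM for Lhx1. Foxi1 (- strand, chr11:34204341-34208089, 3.75 kb) encodes the forkhead factor of intercalated cells, a cell type of the collecting duct, and was the lowest in kidney. It had 0.131, 0.230 and 0.350 RPKM in kidney, against 0, 0.0158 and 0.0431 RPKM in liver. Behind these levels stand 6 to 32 TS reads in a kidney library and 0 to 4 in a liver library, 2 liver libraries being at 0, so Foxi1 is the least precisely measured of the 9.

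Esrrg encodes an orphan nuclear receptor that drives genes of mitochondrial energy metabolism. It is by far the longest of the 9 genes (+ strand, chr1:187609006-188214884, 606 kb). Its TS level was 0.459, 0.618 and 0.902 RPKM in kidney and 0.164, 0.190 and 0.337 RPKM in liver. It was the highest of the 9 in liver and its liver reads numbered 1292 to 3675 per library. ZT4 replicate 1, with 0.178 RPKM, was below the median of the other 11 liver libraries for this gene.

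Ordered by their median TS level in kidney, Lhx1 was followed by Emx1, Pax2, Pax8, Tfap2b, Sim2, Sim1, Esrrg and Foxi1. The ranges of Pax2 and Pax8 overlapped, as did those of Sim2, Sim1 and Esrrg, and all other neighbours in that order were separate. The median of Lhx1 was above that of 95.5% of all entries with a symbol, those of Emx1 and Pax2 above 88.9% and 81.4%, that of Esrrg above 52.4% and that of Foxi1 above 42.0%. In liver the order was Esrrg, Lhx1, Emx1, Pax2, Pax8, Sim2, Sim1, Foxi1 and Tfap2b, each range overlapping the next. There the median of Esrrg was above that of 44.2% of entries and that of Tfap2b above 16.0%.

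**Figure D2:**
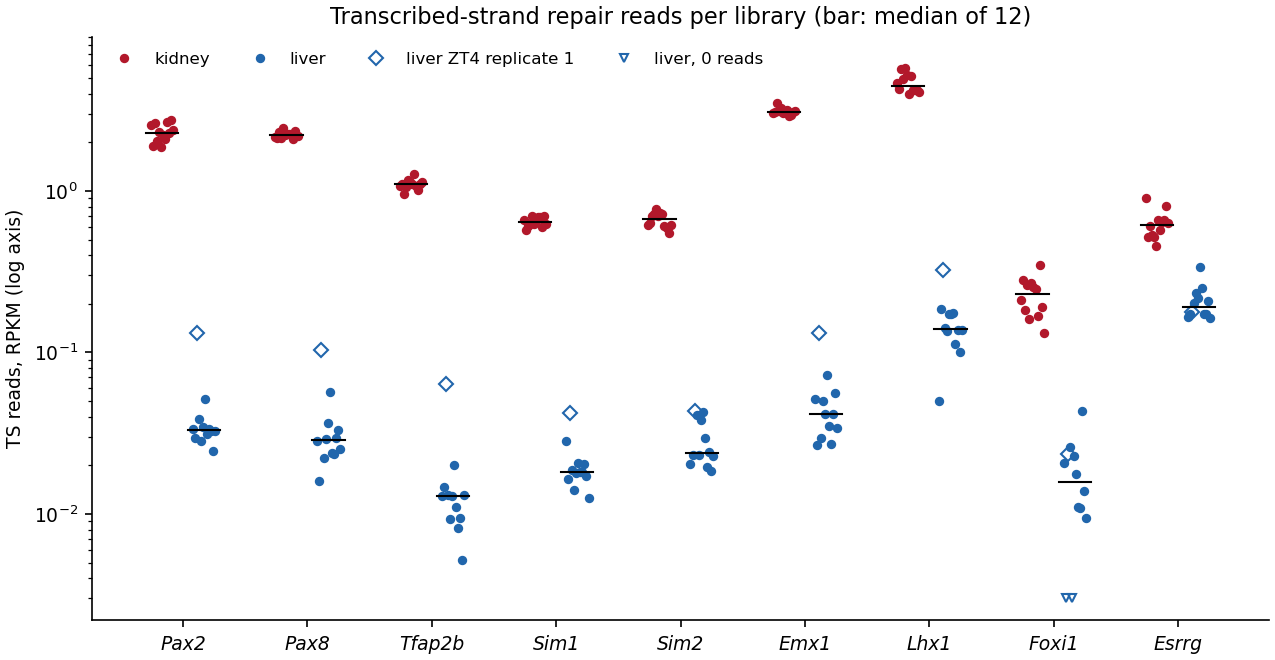
TS level (RPKM, log axis) of the 9 genes in each kidney library (left of each pair) and each liver library (right of each pair), with a bar at the median of 12 libraries. For every gene the 12 kidney libraries lie above the 12 liver libraries, the gap being narrowest for Esrrg and Foxi1, and the open diamond of liver ZT4 replicate 1 is the highest liver value of 7 genes.

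Cisplatin's preferred target, a run of guanines, is set by the sequence of each strand. RefSeq promoter windows of GRCm38.p6, from 250 bases before to 50 bases after a start, were found for 8 of the 9 genes, Sim2 being named only. The windows of Pax8, Emx1 and Foxi1 are shown because, among windows at the deposited gene start, they lean most to C (Pax8), hold the most G and C together (Emx1) and lean most to G (Foxi1). Each is printed 5′ to 3′ in the direction of the gene, with runs of C in capitals, since these are runs of G on the template strand.
Pax8: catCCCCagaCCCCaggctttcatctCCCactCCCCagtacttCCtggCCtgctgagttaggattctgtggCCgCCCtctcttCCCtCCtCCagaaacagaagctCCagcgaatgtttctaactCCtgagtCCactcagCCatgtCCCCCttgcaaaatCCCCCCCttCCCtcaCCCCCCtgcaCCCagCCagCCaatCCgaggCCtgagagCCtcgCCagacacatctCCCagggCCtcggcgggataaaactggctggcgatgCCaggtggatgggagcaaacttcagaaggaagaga
Emx1: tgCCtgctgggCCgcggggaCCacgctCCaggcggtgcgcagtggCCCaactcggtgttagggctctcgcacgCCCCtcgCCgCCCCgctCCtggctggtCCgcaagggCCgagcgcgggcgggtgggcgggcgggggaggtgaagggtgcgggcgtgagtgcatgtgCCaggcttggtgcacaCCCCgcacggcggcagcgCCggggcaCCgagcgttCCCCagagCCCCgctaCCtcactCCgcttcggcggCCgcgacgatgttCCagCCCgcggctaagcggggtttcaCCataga
Foxi1: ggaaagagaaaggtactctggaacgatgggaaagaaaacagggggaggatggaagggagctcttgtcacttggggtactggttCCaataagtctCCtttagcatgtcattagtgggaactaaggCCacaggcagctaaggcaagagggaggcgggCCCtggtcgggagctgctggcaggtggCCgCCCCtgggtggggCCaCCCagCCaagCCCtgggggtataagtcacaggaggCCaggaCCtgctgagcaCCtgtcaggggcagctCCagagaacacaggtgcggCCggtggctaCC
The Pax8 window (- strand, chr2:24475550-24475849) holds 53 overlapping CC steps and 17 GG steps, more CC than 97.1% of 32851 windows. The Emx1 window (+ strand, chr6:85187681-85187980) holds 35 CC and 45 GG steps, and that of Foxi1 (- strand, chr11:34208040-34208339) holds 21 CC and 52 GG steps. The medians over all windows are 22 and 23. The tables give 1 count for a whole gene, so that reads cannot be placed on these bases. The E-box CACGTG, which reads the same on both strands, is in none of the windows of the 8 genes and in 7.15% of all windows.

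The first comparison asks whether the 9 genes were repaired more in kidney than in liver on the TS. All 9 rose in kidney in edgeR's quasi-likelihood test across 19702 genes with Benjamini-Hochberg adjustment (threshold 0.05), where 42.2% of all genes tested were called higher and 31.7% lower in kidney. Tfap2b had the largest log2 difference, 6.21 ± 0.14 (SE), a 73.9-fold higher level in kidney. Pax8 followed with 6.03 ± 0.15 (65.3-fold), Emx1 with 6.01 ± 0.13 (64.3-fold) and Pax2 with 5.84 ± 0.15 (57.5-fold), and the differences among these 4 were not tested. Sim1 was 31.6-fold higher (log2 4.98 ± 0.10), Lhx1 29.1-fold (4.86 ± 0.12), Sim2 22.6-fold (4.50 ± 0.07) and Foxi1 13.3-fold (3.73 ± 0.28). Esrrg stood last with 2.96-fold (1.57 ± 0.09). The largest adjusted p of the 9 was 9.1e-10, for Foxi1. The median difference of the 9 was 4.98, beside 0.07 over all genes tested. Every kidney library was above every liver library for 9 of 9 genes, which held for 15.6% of all genes tested. Without liver ZT4 replicate 1 the differences were larger for Pax2 (6.01), Pax8 (6.26), Tfap2b (6.45), Emx1 (6.23), Sim1 (5.08) and Lhx1 (4.96). They were smaller for Sim2 (4.48), Foxi1 (3.69) and Esrrg (1.53), and all 9 stayed called. Taking whole library totals in place of trimmed means moved the split of all calls to 9271 higher and 5543 lower, beside 8309 and 6243, and RLE factors to 7346 and 7140, with the 9 members called each time.

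The NTS answers the same question for the strand that RNA polymerase does not read. Pax2 had 0.102, 0.122 and 0.166 RPKM (lowest, median, highest) on the NTS in kidney and 0.0212, 0.0309 and 0.0351 RPKM in liver. Tfap2b had 0.236, 0.290 and 0.413 RPKM in kidney and 0.00946, 0.0145 and 0.0281 RPKM in liver. Its highest liver NTS level came from ZT4 replicate 1, and without that library the highest was 0.0190 RPKM. Lhx1 had the highest kidney NTS level, 0.688, 0.922 and 1.07 RPKM, against 0.0629, 0.155 and 0.277 RPKM in liver. In all 8 genes tested, all but Foxi1, which had too few NTS reads, the NTS also rose in kidney, while 33.9% of 19124 genes tested were called higher and 32.2% lower. The rise was 17.2-fold for Tfap2b (log2 4.11 ± 0.12), 8.44-fold for Pax8 (3.08 ± 0.09), 4.73-fold for Lhx1 (2.24 ± 0.11) and 4.22-fold for Emx1 (2.08 ± 0.10). It was 4.14-fold for Sim1 (2.05 ± 0.09), 3.49-fold for Pax2 (1.80 ± 0.07), 2.65-fold for Sim2 (1.41 ± 0.10) and 2.32-fold for Esrrg (1.21 ± 0.06), with a largest adjusted p of 1.69e-13 in edgeR. Kidney and liver NTS levels did not overlap in 8 of the 9 genes, beside 13.2% of all genes tested. With library totals in place of TMM the median of all genes was 0.32 in place of 0.02 and the calls were split 10237 higher to 3335 lower, in place of 6485 to 6159. The 8 members stayed higher in kidney and above that median.

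**Figure D3:**
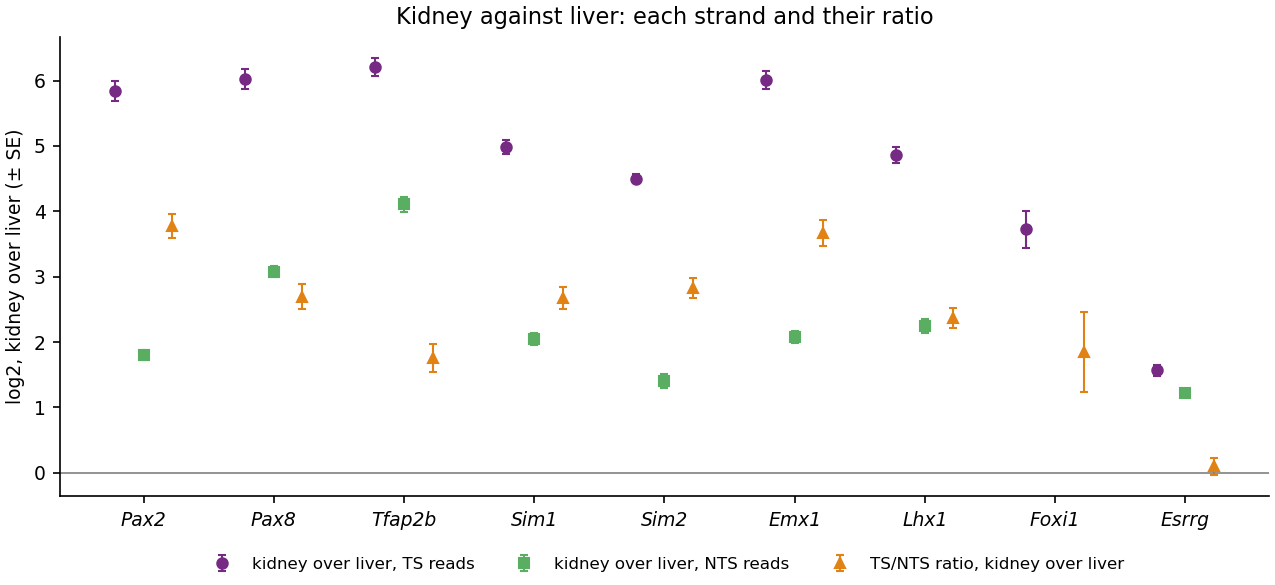
Log2 differences of kidney over liver (± SE) for TS reads, NTS reads and the TS/NTS ratio of the 9 genes. The TS difference exceeds the NTS difference for every gene with both, widely for Pax2 (5.84 and 1.80) and narrowly for Esrrg (1.57 and 1.21), and the TS/NTS ratio of Esrrg lies near 0.

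Within kidney, TS was set against NTS to see how far repair of the 9 genes leaned to the template. All 9 were higher on the TS, as were 75.6% of 20243 genes tested, while 11.4% were lower. Of the reads of both strands summed over the 12 libraries, the TS held 94.6% for Pax2 (95% Wilson interval 94.4 to 94.8%), 91.0% for Emx1 (90.5 to 91.5%), 89.1% for Pax8 (88.8 to 89.5%) and 88.4% for Sim1 (87.9 to 88.9%). Sim2 had 86.7% (85.9 to 87.4%), Esrrg 85.3% (85.1 to 85.5%), Lhx1 83.6% (82.8 to 84.4%), Tfap2b 77.9% (77.1 to 78.7%) and Foxi1 76.6% (71.3 to 81.2%). These intervals cover counting error only, since the reads of the 12 libraries were summed, and they leave out the spread between libraries. For Pax2 single kidney libraries ranged from 91.8 to 96.3%. PCR copies were not told apart by molecular identifiers, so that even the counting error may be understated. TS reads outnumbered NTS reads in 12 of 12 kidney libraries for each gene. As log2 ratios Pax2 had 4.16 ± 0.11 (SE), the highest of the 9, and Foxi1 1.69 ± 0.21, the lowest, beside a median of 2.19 over all genes, with adjusted p of at most 4.72e-08 in edgeR. Tfap2b (1.83 ± 0.07) and Foxi1 were below that median, and when the strands were centred on each other they turned to -0.42 and -0.51, and Lhx1 came to 0.11 (adjusted p 0.0532 in edgeR).

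In liver the same comparison separated Esrrg from the rest. Esrrg had 84.6% of its reads on the TS in liver (95% Wilson interval 84.3 to 85.0%), a log2 ratio of 2.48 ± 0.08 (edgeR adjusted p = 1.09e-20), with TS above NTS in 12 of 12 libraries. The other 8 had between 45.4% (Emx1, 40.8 to 50.04%) and 58.3% (Pax2, 55.8 to 60.8%) on the TS. Of the 9, 4 were called higher on the TS, Esrrg, Pax2 (0.38 ± 0.15, adjusted p = 0.0177), Pax8 (0.40 ± 0.17, 0.0319) and Sim1 (0.32 ± 0.13, 0.0234), beside 73.4% of 20271 genes, and none lower, beside 11.8%. The 3 weak calls were lost without liver ZT4 replicate 1, which left log2 0.18 for Pax2, 0.16 for Pax8 and 0.20 for Sim1 (adjusted p 0.0984, 0.223 and 0.118). The call of Pax8 was also lost without liver ZT8 replicate 1 or ZT12 replicate 1, and DESeq2 called neither Pax8 (adjusted p 0.103) nor Sim1 (0.0726). Without ZT4 replicate 1 Emx1 fell to -0.52 ± 0.16 (edgeR adjusted p = 0.00398), with 40.9% of its reads on the TS, against -0.29 ± 0.18 (0.14) over 12 libraries. In the 11 libraries without it the TS share was 52.9% for Pax2 (617 of 1167 reads) and 52.9% for Pax8 (360 of 680 reads). Tfap2b (0.08 ± 0.22), Sim2 (-0.11 ± 0.13), Lhx1 (-0.00 ± 0.15) and Foxi1 (-0.15 ± 0.54) did not pass the test in liver. When the strands were centred on each other, which places the typical gene near 0, the 8 genes other than Esrrg had between -2.50 (Emx1) and -1.81 (Pax8).

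**Figure D4:**
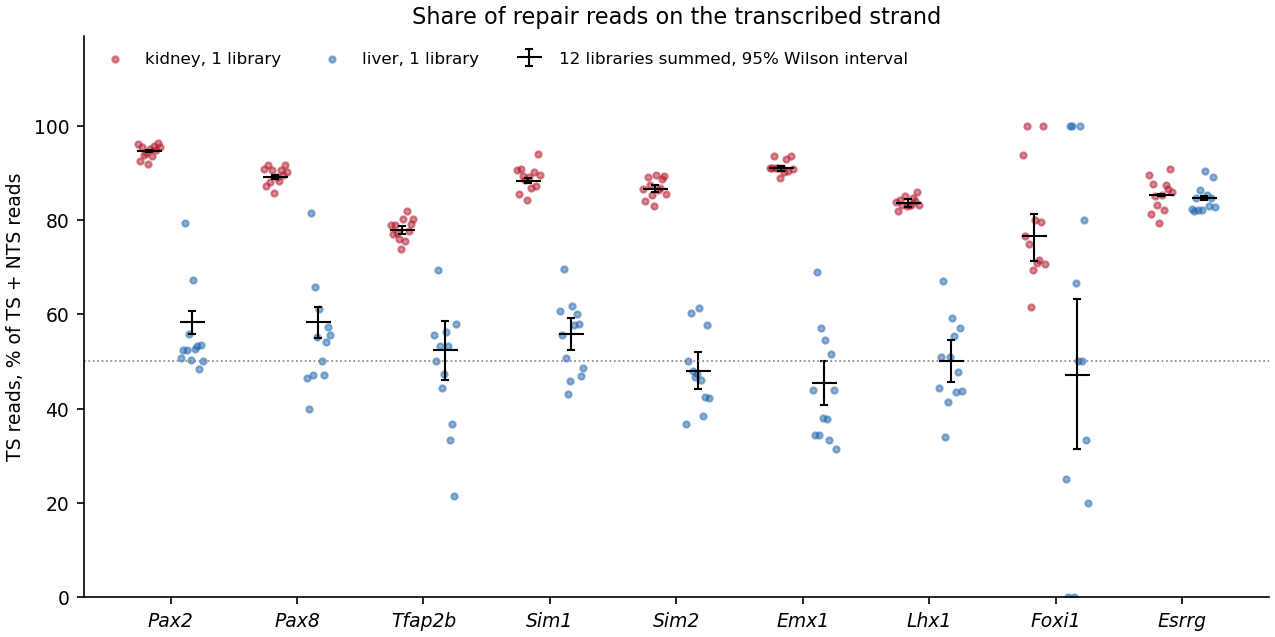
Share of TS reads among TS and NTS reads (%) for the 9 genes in each kidney library (left of each pair) and liver library (right of each pair), with the share over 12 summed libraries and its 95% Wilson interval. Kidney shares lie well above the dotted line at 50% for every gene, liver shares scatter around it for all genes but Esrrg, and the few reads of Foxi1 spread its liver libraries over the whole axis.

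The difference of the strand ratio between kidney and liver was tested directly. It was higher in kidney for 8 of the 9 genes, beside 21.7% of 20601 genes called higher and 35.1% called lower in kidney and a median of -0.13 over all genes. Pax2 had the largest difference, log2 3.78 ± 0.18 (13.7-fold), followed by Emx1 with 3.67 ± 0.19 (12.7-fold) and Sim2 with 2.83 ± 0.15 (7.09-fold). Pax8 (2.70 ± 0.19), Sim1 (2.67 ± 0.17), Lhx1 (2.37 ± 0.15), Foxi1 (1.85 ± 0.62) and Tfap2b (1.76 ± 0.21) also rose, with a largest edgeR adjusted p of 0.0102, for Foxi1. Esrrg had 0.10 ± 0.13 (edgeR adjusted p = 0.559), which did not pass the test, and with the strands centred on each other it was 0.27 (adjusted p 0.0369). That centring brought the median of all genes to 0.04 and the calls to 6123 higher and 5436 lower, in place of 4474 and 7221. Without liver ZT4 replicate 1 the difference was 3.98 for Pax2 and 2.05 for Tfap2b, and 8 genes were called as before.

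The stretches between genes beside the members, counted for kidney in tables drawn down to 8700000 reads (replicate 1) or 20000000 reads (replicate 2), give a local level outside the genes. They begin 2 kb from a gene, and 8 of the 9 genes had one on the 5′ side and 8 on the 3′ side. All 16 had a lower median per strand than the TS of the gene. The lowest ratio of gene TS to flank was 2.29, for the 4.59 kb 3′ of Emx1 up to Sfxn5, with a median of 1.35 RPKM per strand (lowest 0.877, highest 1.84 over 12 libraries). The 7.82 kb 3′ of Pax8 had 0.768 RPKM per strand (0.643 to 1.04), against 0.0714 RPKM (0.0518 to 0.0786) in the 124 kb on its 5′ side. At Pax2 the order was the other way, with 0.381 RPKM (0.339 to 0.449) in the 177 kb on the 5′ side and 0.0823 RPKM (0.0541 to 0.115) in the 89.2 kb on the 3′ side. A RefSeq start of Pax2 lies 10793 bases before the deposited start, within that 5′ stretch. The stretch is therefore not wholly outside the annotated gene. Both flanks of Tfap2b, with 0.0816 RPKM on the 5′ side and 0.0326 RPKM on the 3′ side, had lower medians than the NTS of the gene (0.290 RPKM). Of the flanks, 3 of 8 on the 5′ side (Pax2, Sim1 and Sim2) and 3 of 8 on the 3′ side (Emx1, Pax8 and Foxi1) had a higher median than the NTS of their gene, by 1.02 times (Foxi1) to 4.43 times (Emx1). Strand was not named in these tables.

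Related factors put the 9 genes in context. Of 27 other factors of the nephron, 21 were higher on the TS in kidney and 4 lower in edgeR (median log2 1.85), beside 42.2% higher and 31.7% lower of all genes tested. The homeobox gene Emx2, paralogue of Emx1, led with 5.82 ± 0.12 and 4.13 RPKM in kidney against 0.0641 RPKM in liver, followed by Pou3f3 (5.52 ± 0.10), Irx2 (5.49 ± 0.17) and Osr1 (4.76 ± 0.19). Among the lower ones were Hnf4a (-0.81 ± 0.04), a nuclear receptor that acts in liver as well, and Sox9 (-0.49 ± 0.09). Of 23 paralogues of the members 21 were tested, and 15 were higher and 2 lower in kidney (median log2 0.71). Among them Tfap2a rose by log2 4.20 ± 0.09 and Esrrb by 2.24 ± 0.11, whereas Lhx2 (-1.28 ± 0.10) and Lhx6 (-0.94 ± 0.10) were lower in kidney. Of 14 hepatocyte factors none was higher and 13 were lower in kidney (median log2 -3.30), Onecut2 by -5.25 ± 0.17 and Onecut1 by -5.02 ± 0.10. In liver the TS was higher than the NTS for 14 of 14 hepatocyte factors (median log2 2.94), against 17 of 27 other nephron factors (1.06) and 4 of 9 members (0.08), beside 73.4% of all genes tested (2.24).

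The last question was whether TS repair of the 9 genes followed a 24 h rhythm, tested by fitting a 24 h cosine to the log2 level. In kidney 2 of 9 genes were called, beside 15.0% of 19277 genes. Sim2 had 0.616 and 0.637 RPKM at ZT0, 0.703 and 0.718 at ZT4, 0.777 and 0.697 at ZT8, 0.729 and 0.723 at ZT12, 0.602 and 0.586 at ZT16, and 0.546 and 0.618 at ZT20. All 6 libraries of ZT4 to ZT12 were above the other 6. The fitted log2 amplitude was 0.16 ± 0.04 (SE), so that peak and trough differed 1.25-fold, and the peak fell at 7.86 h (edgeR adjusted p = 0.0258). Lhx1 had 4.64 and 4.29 RPKM at ZT0, 5.72 and 4.96 at ZT4, 5.77 and 5.23 at ZT8, 3.98 and 5.11 at ZT12, 4.23 and 4.19 at ZT16, and 4.23 and 4.08 at ZT20. The 4 libraries of ZT4 and ZT8 were above all others but replicate 2 of ZT12, and replicate 1 of ZT12 was the lowest of the 12. Its amplitude was 0.18 ± 0.05 (1.29-fold) with a peak at 6.16 h (edgeR adjusted p = 0.0366). As any difference among the 6 times neither was called (edgeR adjusted p 0.255 for Sim2 and 0.336 for Lhx1), and with the trend over gene length removed Lhx1 was not called (0.199). The call of Sim2 was lost without kidney ZT8 replicate 1 or ZT20 replicate 1, and that of Lhx1 without ZT4 replicate 1 or any 1 library of ZT8, ZT16 or ZT20.

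Esrrg gave the largest kidney amplitude of the 9, and whether it passed the test depended on the setting. It had 0.902 and 0.517 RPKM at ZT0, 0.602 and 0.532 at ZT4, 0.518 and 0.459 at ZT8, 0.661 and 0.570 at ZT12, 0.638 and 0.658 at ZT16, and 0.808 and 0.634 at ZT20. Replicate 1 exceeded replicate 2 at 5 of 6 times, most at ZT0, as it did at 6 of 6 times for Pax2 and at 5 of 6 for Pax8 and Lhx1. The amplitude was 0.28 ± 0.08 (1.48-fold) with a fitted peak at 20.0 h (edgeR adjusted p = 0.0589), and it was called with DESeq2 (adjusted p 0.0257), without the low-count filter (edgeR, 0.0369) and without ZT0 replicate 1, ZT0 replicate 2, ZT12 replicate 1 or ZT20 replicate 2. Esrrg was not called as any difference among the 6 times or with the trend over gene length removed. Of 18 alternatives in all, 7 called it, and the edgeR adjusted p reached 0.361. With the replicate number as a term in the fit, Esrrg and Pax2 were called beside Sim2 and Lhx1. Without that term the other 6 genes were not called in kidney, with amplitudes of 0.02 (Pax8) to 0.15 (Pax2), beside a median of 0.13 over all genes. Pax8 stayed within 2.10 to 2.46 RPKM at all times.

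In liver 1 of the 8 genes tested was called, beside 16.6% of 18655 genes, Foxi1 having too few reads. Esrrg had 0.165 and 0.174 RPKM at ZT0, 0.178 and 0.202 at ZT4, 0.234 and 0.217 at ZT8, 0.337 and 0.250 at ZT12, 0.173 and 0.172 at ZT16, and 0.207 and 0.164 at ZT20. The 4 libraries of ZT8 and ZT12 were above the other 8. Its amplitude was 0.31 ± 0.08 (1.54-fold) with a peak at 10.8 h (edgeR adjusted p = 0.0463). The call was lost with RLE factors (edgeR adjusted p 0.0541) and without any 1 library of ZT0, ZT4, ZT8 or ZT12 or without ZT20 replicate 2, the amplitude being 0.20 without ZT12 replicate 1. The amplitudes of Pax2 (0.53), Tfap2b (0.91) and Sim1 (0.29), which were not called, came to 0.14, 0.22 and 0.02 without liver ZT4 replicate 1. Sim2 had an amplitude of 0.46 ± 0.14 (edgeR adjusted p = 0.074). It was called in 1 of 18 alternatives, that without liver ZT8 replicate 1 (0.57, edgeR adjusted p 0.0294). Without liver ZT4 replicate 1, its highest liver library, the amplitude of Sim2 was 0.41 and was not called. The difference of the rhythm between kidney and liver, a test added after seeing the data, was called for 0 of 9 genes, beside 0.939% of 19702 genes. Foxi1, counted among the 9, had 0 to 4 TS reads per liver library, too few for its result to carry weight. The unadjusted edgeR p of that difference was below 0.05 for Pax2 (0.0262), Tfap2b (0.00529) and Esrrg (0.0011). Without liver ZT4 replicate 1 the amplitude of that difference was 0.26 for Pax2 and 0.25 for Tfap2b (edgeR adjusted p 0.681 and 0.896), against 0.69 and 0.99 with it, and 0.55 for Esrrg, against 0.54 with it. Esrrg had the lowest adjusted p of the 9, 0.082 in edgeR, and was called without kidney ZT0 replicate 2.

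**Figure D5:**
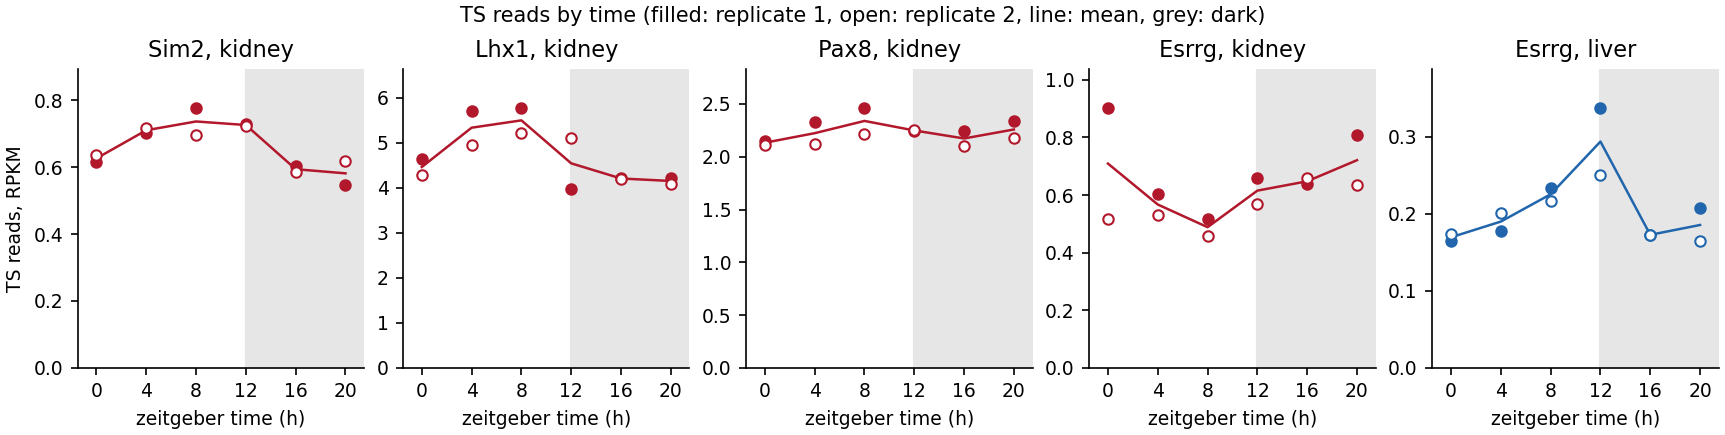
TS level (RPKM, axis from 0) by zeitgeber time for Sim2, Lhx1, Pax8 and Esrrg in kidney and for Esrrg in liver, with replicate 1 filled, replicate 2 open, their mean as a line and the dark phase in grey. By their means, Sim2 is highest at ZT4 to ZT12 and Lhx1 at ZT4 and ZT8, and Pax8 is level. Esrrg is lowest at ZT8 in kidney and highest at ZT12 in liver.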

How the data were processed

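XR-seq reads were counted by gene, strand and time by the authors. Coordinates refer to mm10, per the submitters' processing notes. No aligner is named (not given in the sources used here). Per the file headers, each deposited table gives a whole-number count of reads and an RPKM value per gene. The deposited counts were used for all tests and the deposited RPKM values for levels. Entries with no symbol (882, with 2.76% of TS reads) were left out. Coordinates are those of the deposited tables, made 1-based. Pax2 overlaps Mir6405 and 1700039E22Rik, and Esrrg overlaps 9330162B11Rik, so that reads in the shared stretches are uncertain. Kidney tables drawn down by the authors were used for flanks only, and their 2 lines per stretch were summed and halved.

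The members, lists, tests and settings were chosen with earlier results of these data known, so that differences the choice of genes implies are no independent support. The text names all members, up to 4 called genes each way from each of the other lists, and for members with a mean of at least 50 kidney TS reads the 2 genes most like them, except a few that are not reported here. Replicates were numbered by their labels.

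The test was edgeR's quasi-likelihood F-test (edgeR 4.0.16 with limma 3.58.1 under R 4.3.3) after TMM and filterByExpr, over all genes with Benjamini-Hochberg adjustment. Comparisons of TS with NTS blocked on the library and used the same size for its strands. An amplitude's SE came from F, as amplitude over root F, tested in the direction of the fitted peak. Alternatives were RLE factors, DESeq2 1.42.0, no filter, library totals, strands centred on each other, replicate blocks, any difference among times, removal of the length trend and leaving out each library. Scripts were tested on simulated data.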

Additional observations from a re-analysis of the deposited data

Results flagged for a closer look

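The ratio of TS to NTS reads differed between kidney and liver for 8 genes by the test of the difference itself (edgeR's quasi-likelihood test, strand by tissue, Benjamini-Hochberg adjusted). As log2 differences of kidney over liver these were 3.78 for Pax2, 3.67 for Emx1, 2.83 for Sim2, 2.70 for Pax8, 2.67 for Sim1, 2.37 for Lhx1, 1.85 for Foxi1 and 1.76 for Tfap2b, beside a median of -0.13 over all genes. Leaving out any 1 of the 24 libraries changed none of these calls. Beyond leaving out each library, no rule for single outlying libraries was applied to these ratios.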

How the results depend on the processing

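Of 1595 values of single genes under 33 settings, 1542 counted as the same by their side of the threshold, 30 lost a call, 17 gained one and 6 turned round. Direction was compared only for values called with the setting or without it, and not for any difference among the 6 times. A value called in neither could change sign and still count among the 1542. Tfap2b on the liver strands did so, from 0.08 to -0.21 without liver ZT4 replicate 1. The 6 that turned all came from centring the strands on each other by TMM over the strand columns: -0.42 for Tfap2b and -0.51 for Foxi1 in kidney, and -1.83 for Pax2, -1.81 for Pax8, -2.11 for Tfap2b and -1.90 for Sim1 in liver, where that setting by its construction sets the typical gene near 0. A strand difference in liver, in either direction, was called for 9 members with that setting, all but Esrrg being lower on the TS. It was called for 2 members with DESeq2 and for 2 to 4 when 1 library was left out. Emx1, lower on the TS at -0.52, was among those called without liver ZT4 replicate 1. For the kidney rhythm, any difference among the 6 times gave 196 genes and 0 members (3136 genes at an unadjusted p under 0.05), removal of the length trend gave 1 member, and leaving out 1 library gave 908 genes (without ZT8 replicate 2) to 3938 genes (without ZT0 replicate 2) and 0 to 3 members, the count also moving by over 1.5 times without ZT8 replicate 1 (1328), ZT16 replicate 1 (1688), ZT20 replicate 1 (1703) or ZT4 replicate 2 (1868). For the liver rhythm, RLE factors gave 0 members, any difference among the times gave 549 genes, and leaving out 1 library gave 1639 genes (without ZT20 replicate 1) to 4514 genes (without ZT0 replicate 1) and 0 to 1 members, ZT20 replicate 2 left out giving 1824, and ZT8 left with 1 library giving 1907 (replicate 1 out) or 2021 (replicate 2 out). For the difference of rhythms, leaving out 1 library gave 112 genes (without kidney ZT8 replicate 2) to 400 genes (without liver ZT0 replicate 1) and 0 to 1 members, with 122 without kidney ZT8 replicate 1 and 356 without liver ZT0 replicate 2. The cause of these shifts was not tested.

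The replicate block added the replicate number as a term. It gave 4899 genes and 4 members for the kidney rhythm (2886 genes and 2 members without it), the added members being Pax2 (edgeR adjusted p 0.0105) and Esrrg (0.003), and 308 genes with 1 member, Esrrg (0.0282), for the difference of rhythms (185 genes and 0 members without it). It changed no other member's call. The deviations of replicate 1 from the mean of each time correlated between kidney times with r of 0.0853 to 0.594, over 0.1 in 14 of 15 pairs of times, between liver times with r of -0.199 to 0.41, and between kidney and liver of the same time with r of 0.0102 to 0.323 (3 of 6 pairs over 0.1). The kidney libraries of a number thus deviated together at most times (median r 0.362), while the labels tie the number to no shared animal, batch or day and not every pair passed 0.1, so the term was kept as an alternative. Depth limits Foxi1 most, with 0 to 4 liver reads per library on either strand.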

Other observations

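The genes whose TS level (log2 of CPM plus 1) followed each member most closely over the 24 libraries were described for the 8 members with enough reads, among 14791 genes. These correlations carry no test, since all 24 points share the difference between kidney and liver. Pax2 was most like the homeobox gene Hoxd3 (Pearson r 0.999) and Atp6v0a4, a subunit of the proton pump of intercalated cells (0.999), and Pax8 was most like Atp6v0a4 and Gm53 (both 0.998). For Tfap2b the kidney cadherin Cdh16 was among the most alike (0.999). Sim1 was most like Arhgef28 (0.999) and Paqr5 (0.998), Sim2 most like Ovol1 and Tmem27 (both 0.997), Emx1 most like Gm10732 and its paralogue Emx2 (both 0.998), and Lhx1 most like Hoxc10 (0.997) and Ggt1 (0.996). Esrrg had the weakest likeness, to Ank3 (0.985) and Mansc4 (0.978), and Ank3 had 0.750 RPKM in kidney and 0.269 RPKM in liver.

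Genes that share a stretch or a start with a member gave these values. Lhx1os starts 126 bases from the start of Lhx1 on the other strand (chr11:84525660-84535831) and had a median TS level of 2.63 RPKM in kidney and 0.0483 RPKM in liver. Its summed reads were 6443 on the TS and 769 on the NTS in kidney, against 155 and 159 in liver. The entry 1700039E22Rik lies within Pax2 on the other strand, and in kidney it had 165 reads on its own TS and 2670 on its NTS, the strand that is the TS of Pax2. The entry 9330162B11Rik within Esrrg had 47 TS and 249 NTS reads in kidney and 30 and 95 in liver. Among the related factors Esrrb, paralogue of Esrrg, was called rhythmic in kidney with a log2 amplitude of 0.25 ± 0.07 and a peak at 19.2 h (edgeR adjusted p = 0.0409), 1 of 21 paralogues tested, and 5 of 27 other nephron factors were called, beside 15.0% of all genes tested, the largest amplitudes of the 5 being those of Irx1 (0.27 ± 0.06, peak at 6.30 h) and Irx3 (0.22 ± 0.05, 5.43 h).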
